A study of Mus musculus with 7 samples.

Results

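The genes described here encode the proteins of the cytosolic and the mitochondrial ribosome. They were chosen by symbol alone: protein-coding genes of the deposited table whose names begin with Rpl, Rps, Mrpl or Mrps and a number, together with the Rplp genes and Rpsa, and without the kinases named Rps6k. The rule found 98 genes among the 7091 of the table, 35 for the cytosolic and 63 for the mitochondrial ribosome. The 35 include Rps19bp1, which encodes a protein that binds a ribosomal protein and is not itself a subunit, and the paralogs Rpl22l1 and Rpl7l1. All 98 symbols were found in GENCODE M21.

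RNA of separated epidermis was sequenced in bulk from 4 KA mice and 3 controls, one library per mouse. KA mice (K14-CreERT;ABCA12-cKO) carry a conditional allele of the lipid transporter gene Abca12 and a tamoxifen-activated Cre under the keratin 14 promoter, which is active in basal keratinocytes. Controls (ABCA12-c/c) carry the conditional allele and no CreERT, so the comparison holds the deletion and the presence of an active recombinase together. All mice were given tamoxifen at an age of 8 weeks, 1 mg for each 40 g of body weight daily on 3 days, and the epidermis of telogen (resting hair cycle) skin was taken 2 weeks after it. Controls 1 and 3, KA 3 and KA 4 were females, and control 2, KA 1 and KA 2 were males. Abca12 itself was not analysed here.

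The cytosolic ribosome translates nuclear messages from a small subunit that reads the mRNA and a large subunit that joins amino acids. Its proteins are made in step with ribosomal RNA, and their mRNAs typically begin with a pyrimidine-rich stretch, the 5-prime terminal oligopyrimidine (TOP) motif, through which mTOR signalling controls their translation. The mitochondrial ribosome makes the few respiratory chain proteins encoded in mitochondrial DNA, while its own proteins are encoded in the nucleus and imported.

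Pyrimidine-rich words of the TOP kind were searched for around the start sites. RefSeq (GRCm38.p6) promoter sequences were matched for 81 of the 98 genes, 27 cytosolic and 54 mitochondrial. In the 30 bases around the start site, on the transcribed strand, CTTTC was present in 9 of 27 cytosolic members (33.3%), 3 of 54 mitochondrial members (5.56%) and 4.76% of 27025 genes. The longer CTCTTTC, which contains CTTTC, was present in 5 of 27 cytosolic members (18.5%), 0 of 54 mitochondrial members and 0.488% of all genes. These 5 and Rplp2 are shown 5′ to 3′ with the match in capitals and 15 bases on each side of the start.
Rpl18: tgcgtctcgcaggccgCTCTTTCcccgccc
Rpl28: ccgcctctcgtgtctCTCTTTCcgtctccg
Rpl35: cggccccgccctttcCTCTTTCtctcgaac
Rps26: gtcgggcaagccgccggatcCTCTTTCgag
Rps15a: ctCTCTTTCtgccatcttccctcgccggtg
Rplp2: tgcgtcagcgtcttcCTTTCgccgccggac
The windows are chr7:45718056-45718085 (plus strand) for Rpl18, chr7:4792950-4792979 (plus) for Rpl28, chr2:39005117-39005146 (minus) for Rpl35, chr10:128626492-128626521 (minus) for Rps26, chr7:118116133-118116162 (minus) for Rps15a and chr7:141447636-141447665 (plus) for Rplp2. The first 15 bases of each window lie upstream of the RefSeq start and the others are transcribed from it. The match begins at the first transcribed base in Rpl28, Rpl35 and Rplp2, at base 2 in Rpl18 and at base 6 in Rps26. In Rps15a it begins 13 bases upstream and lies outside the RefSeq transcript.

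Promoters of both sets more often than those of all genes held CCGGAAG, a sequence bound by ETS family factors such as GABP. On either strand of the 300 bases around the start it was present in 23 of 54 mitochondrial members (42.6%), 10 of 27 cytosolic members (37%), 9.93% of all genes and 16.5% of the listed genes with a promoter sequence. It is shown for 4 of the mitochondrial members described by value here, in 60 bases 5′ to 3′ on the gene's strand, with the match or its reverse complement CTTCCGG in capitals.
Mrps27: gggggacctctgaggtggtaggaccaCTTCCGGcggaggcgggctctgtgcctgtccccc
Mrpl51: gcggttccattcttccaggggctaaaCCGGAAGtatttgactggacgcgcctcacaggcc
Mrpl52: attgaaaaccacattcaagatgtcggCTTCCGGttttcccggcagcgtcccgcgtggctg
Mrpl17: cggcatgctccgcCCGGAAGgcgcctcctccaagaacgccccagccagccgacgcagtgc
They lie at chr13:99344712-99344771 (plus strand), chr6:125192084-125192143 (plus), chr14:54426836-54426895 (plus) and chr7:105811278-105811337 (minus), and the matches begin 48, 90, 47 and 237 bases upstream of the start.

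Some other promoter words were also more frequent in the members and some were not. CAAGATGG, the core of the YY1 motif, was present in 14.8% of mitochondrial members, 7.41% of cytosolic members, 2.42% of all and 3.1% of listed genes. The E-box CACGTG, bound by Myc, was present in 7.41% of each ribosome's members and 8.09% of all and 11.7% of listed genes. The NRF1 palindrome was present in 1.85% of mitochondrial and 7.41% of cytosolic members, against 1.07% of all and 1.92% of listed genes. GGGCGG, the GC box, was present in 74.1% of cytosolic and 50% of mitochondrial members, against 38.2% of all and 64.2% of listed genes. CCAAT was present in 25.9% of cytosolic and 37% of mitochondrial members, against 41.1% of all and 41.9% of listed genes. TATAAA was present in 11.1% of cytosolic and 9.26% of mitochondrial members, against 15.7% of all and 10.2% of listed genes. In all, 16 words were searched, and those left are variants of the ones above, most of which overlap them. Around the start, TCTTTC was present in 22.2% of cytosolic members (1.34% of all genes), CCTTTC in 14.8% (1.49%), CTTTT in 11.1% (3.68%) and CTTCC in 22.2% (7.83%), and in 0%, 0%, 1.85% and 16.7% of mitochondrial members. On either strand of the 300 bases, GGAAGT was present in 55.6% of cytosolic and 35.2% of mitochondrial members (26.5% of all genes). AAGATGG was present in 18.5% of each set (7.28% of all genes), and ATGGCGGC in 11.1% and 13% (2.6%). A match is a stretch of letters and not a measured binding site.

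The deposited table holds only genes that passed the authors' own adjusted p of 0.05, which shapes every count that follows. It contained 35 of the 92 cytosolic ribosomal protein genes of the annotation (38%) and 63 of the 78 mitochondrial ones (80.8%), where 36.5% of the 19407 genes that the authors adjusted over were listed. In the authors' deposited table all 98 listed members were higher in KA, as were 3727 of all 7091 listed genes. Those 3727 genes were 19.2% of the 19407. Genes not listed were not analysed here, so nothing is said of the other annotated members.

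Every listed ribosomal gene rose in KA epidermis, by modest amounts. In edgeR quasi-likelihood fits of 6746 genes, with p-values adjusted by the Benjamini-Hochberg method over them, 35 of 35 cytosolic and 63 of 63 mitochondrial members were called higher and 0 lower at an adjusted p of 0.05. The background was 52.7% of genes called higher and 47.3% lower, with 100% called in either direction, so passing this test a second time on genes listed for having passed is not independent evidence. The median log2 fold change was 0.47 (1.38-fold) for the cytosolic and 0.65 (1.57-fold) for the mitochondrial members, against 0.36 for all genes tested and 0.81 for all genes higher in KA. The middle 50% of members lay between 0.41 and 0.53 for the cytosolic and between 0.54 and 0.83 for the mitochondrial ribosome. When the same p-values were adjusted over the authors' 19407 genes, 16 of 35 cytosolic and 58 of 63 mitochondrial members were called higher, against 46.1% of genes tested. With scaling factors computed from the listed genes, 14 cytosolic and 56 mitochondrial members were called higher by TMM (44% of genes tested) and 11 and 52 by RLE (40.9%). In bulk tissue a change in the mix of cells and a change in RNA per cell cannot be told apart. The p-values set the difference between the groups against the spread between mice of the same group.

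**Figure D1:**
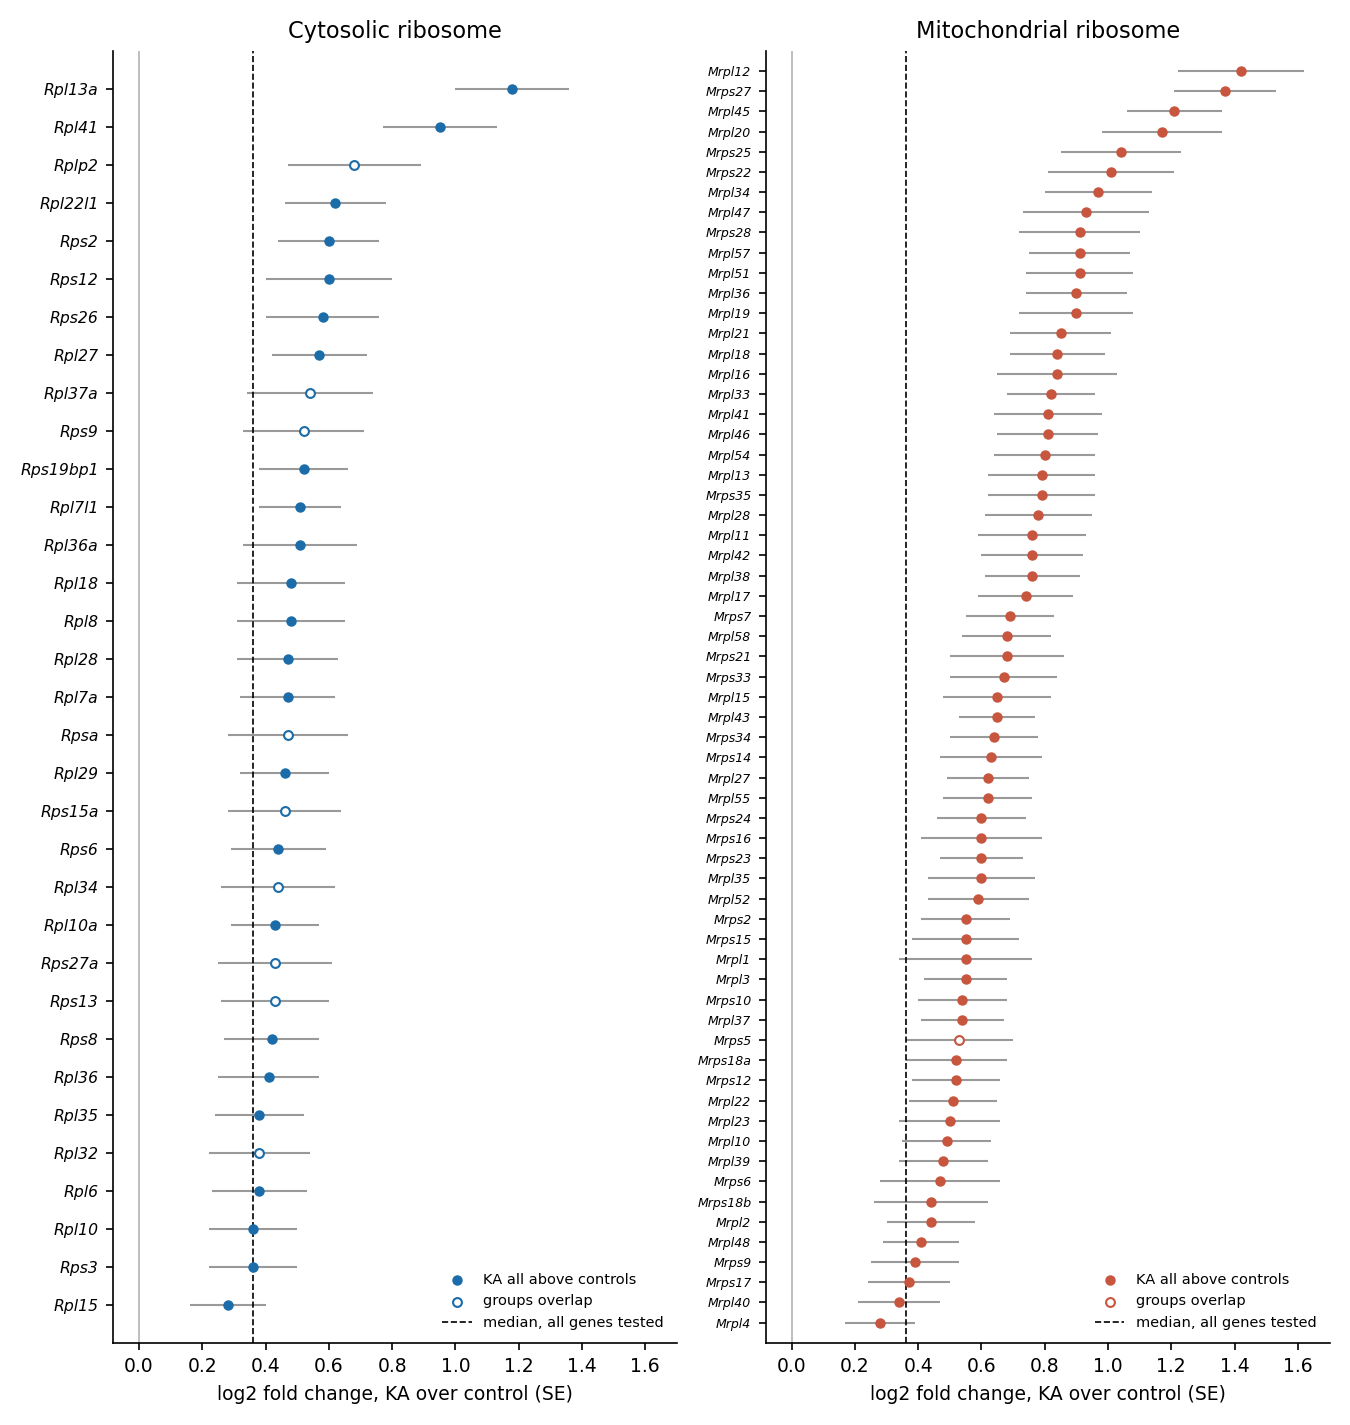
Log2 fold change of KA over control for the members (points, edgeR; 2 that are not reported singly are left out) with its standard error (bars), by ribosome, ordered by size. Filled points are genes with all 4 KA libraries above all 3 controls. The dashed line is the median of all genes tested, 0.36. All points lie to the right of 0, from 0.28 to 1.18 in the cytosolic and from 0.28 to 1.42 in the mitochondrial panel.

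Library by library, the mitochondrial set separated the groups and the cytosolic set did so less cleanly. Summed normalised reads of the cytosolic members were 480878, 645224 and 705775 in controls 1, 2 and 3, and 897832, 914561, 870187 and 750673 in KA 1, 2, 3 and 4. On the authors' scaling the sums did not overlap, but KA 4 stood only a little above control 3, and control 1 was far below the other controls. As a share of listed reads the groups did overlap, with 6.74% in KA 4 and 6.9% in control 3. Summed normalised reads of the mitochondrial members were 32681, 40637 and 40875 in the controls and 70146, 64135, 57430 and 54322 in the KA libraries. Here the gap between the groups was wider than the range of the controls. All 4 KA libraries were above all controls for 62 of 63 mitochondrial members (98.4%) and for 26 of 35 cytosolic members (74.3%), where 49.2% of genes tested, and 93.3% of those higher in KA, had that order, and 44.3% had every KA library below every control. The cytosolic genes whose groups overlapped were Rplp2, Rpl37a, Rps9, Rpsa, Rps15a, Rpl34, Rps27a, Rps13 and Rpl32, and in each of these 9 KA 4 was not above control 3. The single mitochondrial exception was Mrps5, a small subunit protein, with 553, 636 and 589 normalised reads in the controls and 1037, 865, 629 and 899 in KA 1 to 4, where KA 3 fell below control 2.

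**Figure D2:**
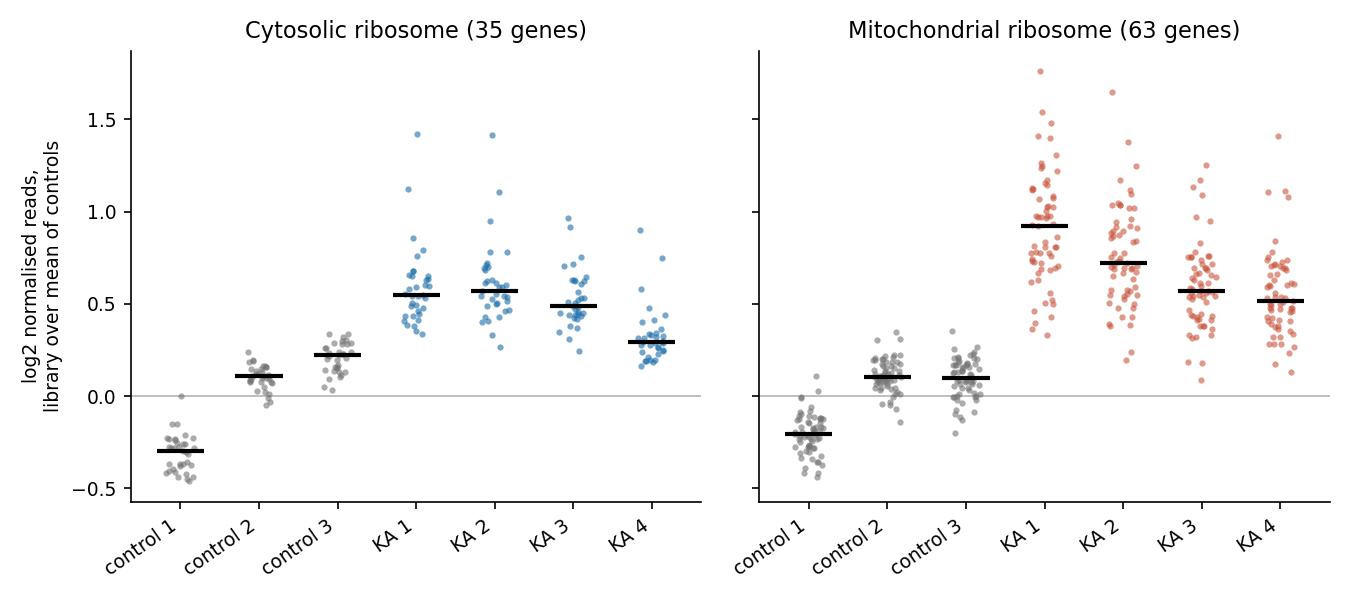
Each point is 1 gene in 1 library, as the log2 of its normalised reads (plus 0.5) over the mean of the 3 controls on that scale, and black bars are medians. Cytosolic medians run from -0.30 in control 1 to 0.22 in control 3 and from 0.29 in KA 4 to 0.57 in KA 2. Mitochondrial medians run from -0.20 to 0.10 in the controls and from 0.52 to 0.92 in KA.

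Control 1 and KA 4 were the low libraries of their groups for most members. Control 1 was the lowest control for 34 of 35 cytosolic and 58 of 63 mitochondrial members, against 42.9% of all genes tested and 58.5% of those higher in KA. Relative to the other controls its median log2 difference was -0.44 for cytosolic and -0.31 for mitochondrial members. It was -0.04 for all genes and -0.17 for those higher in KA. KA 4 was the lowest KA library for 32 of 35 cytosolic and 38 of 63 mitochondrial members, against 24.6% of genes tested and 1172 of the 3556 higher in KA. KA 1 was the highest for 50 of 63 mitochondrial members and for 12 of 35 cytosolic members, against 35.6% of genes tested and 2181 of the 3556 higher in KA.

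The size of the cytosolic difference depended on control 1. Without control 1, the cytosolic median was 0.32, beside 0.33 for all genes, and 15 of 35 members were called higher by edgeR, against 47% of genes tested. Without KA 2, 16 of 35 cytosolic members were called, against 49.5% of genes tested. The mitochondrial median without control 1 was 0.56, with 56 of 63 members called. All 98 log2 fold changes stayed positive with each library left out in turn. All 98 had been listed as higher, so this is not independent evidence. For 26 of 35 cytosolic and 62 of 63 mitochondrial members every KA library was above every control, so the sign could not turn.

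The same order appeared when KA libraries were set beside the control that shares a letter (A, B or C) in the sample titles, whose meaning the labels do not give. The median log2 ratio of cytosolic members was 0.83 for letter A (KA 1 over control 1), 0.46 for letter B (KA 2 over control 2) and 0.19 for letter C (KA 3 and KA 4 over control 3). For all genes tested, which include both directions, these medians were 0.38, 0.27 and 0.20, and for genes higher in KA 1.12, 0.76 and 0.63. In letter C the cytosolic members were thus near the median of all genes and below that of genes higher in KA. The mitochondrial medians were 1.11, 0.63 and 0.44. KA 3 was above control 3 for all 35 cytosolic and all 63 mitochondrial members, and KA 4 for 26 and 63. With 1 control per letter these values have no replicate error, and the difference between letters was not tested. The animal numbers in the titles fall into 4853 to 4857 (letters A and B) and 4875 to 4877 (letter C), and within the lower run alone the fitted medians were 0.66 for the cytosolic and 0.85 for the mitochondrial members. Across sexes, the median log2 ratio was 0.45 in males and 0.46 in females for cytosolic members and 0.71 and 0.61 for mitochondrial members. The male values rest on control 2 alone. The female values average controls 1 and 3, which had the lowest and highest cytosolic medians of the controls (-0.30 and 0.22 over the control mean). The sexes were not compared by a test. In the females alone, 3 cytosolic members (Rpl13a, Rpl22l1 and Rpl41) and 38 mitochondrial members were called higher by edgeR, against 31.9% of genes tested.

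**Figure D3:**
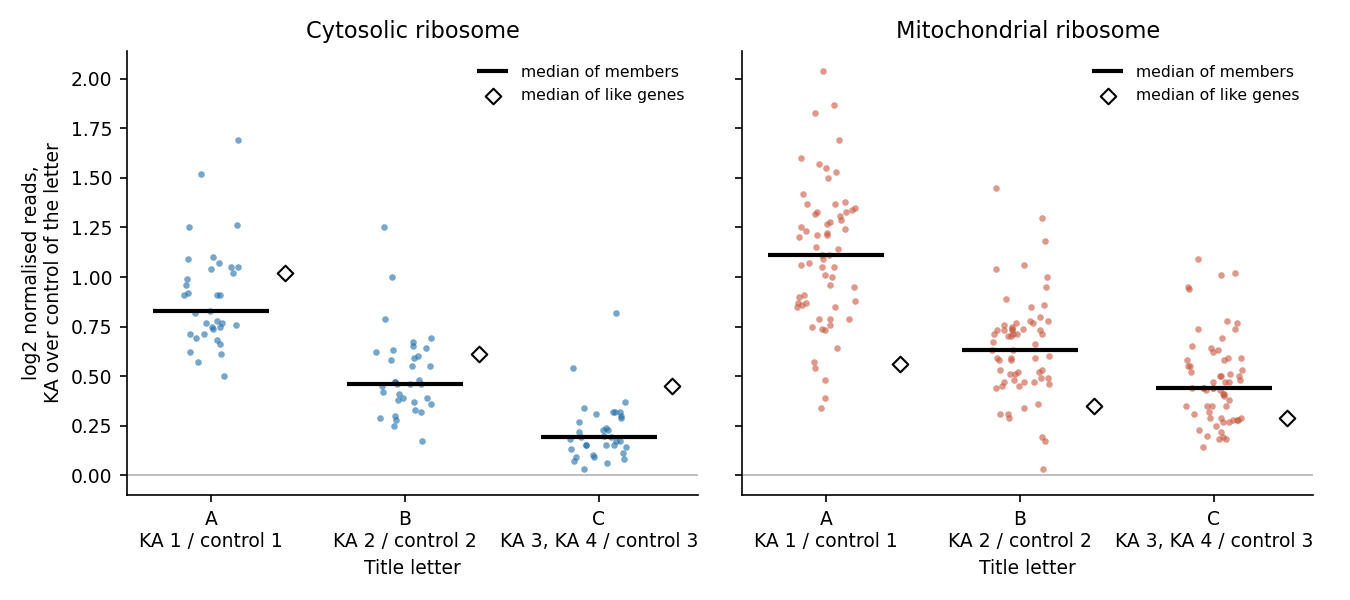
Log2 ratio of normalised reads, KA over the control with the same title letter, for each member (points), with the median of members (bars) and the median of other protein-coding genes of like length and level (diamonds). Cytosolic medians are 0.83, 0.46 and 0.19 for letters A, B and C and lie below the diamonds, and mitochondrial medians are 1.11, 0.63 and 0.44 and lie above them. The diamonds include genes lower in KA, whereas all members were higher.

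Short genes as a whole were higher in KA in this table. Among other protein-coding genes the median log2 fold change was 0.93 for those under 1000 bases (199 genes), 0.69 for 1000 to 1999 bases, 0.52 for 2000 to 2999, 0.39 for 3000 to 4999, -0.42 for 5000 to 7999 and -0.53 for 8000 bases or more. The share of these genes higher in KA fell over the same classes, from 77.9% to 32.7%. Cytosolic members under 2000 bases had a median of 0.47 and longer ones 0.46, and mitochondrial members 0.66 and 0.65. All members were listed as higher, so their medians could not turn negative and cannot be set against this gradient. Other protein-coding genes within the 10th to 90th percentile of the cytosolic members' length (1100 to 3365 bases) and mean normalised reads (5220 to 38646) numbered 108, of which 87 were higher in KA (80.6%), with a median of 0.66. The cytosolic median of 0.47 was below theirs, but these genes were not fully alike, with a median of 8592 reads and 2383 bases against 19694 reads and 1840 bases for the members. The corresponding genes for the mitochondrial members (993 to 7193 bases, 453 to 1290 reads) numbered 1257, of which 745 were higher (59.3%), with a median of 0.42. The mitochondrial median of 0.65 was above theirs, but 512 of these genes were called lower and none of the members was. These medians therefore do not compare the size of rises. All genes higher in KA had a median of 0.81. Within the 25th to 75th percentile the like genes had a median of 0.76 for the cytosolic (5 genes) and 0.50 for the mitochondrial members (366 genes). When GC content and gene length were fitted per library, the cytosolic median was 0.19 with 10 of 35 called higher, and the mitochondrial median 0.55 with 40 of 63, against 45.1% of genes tested and a median of 0.15 for all genes. Under that correction 7 members had negative values, of which Rpl36 was called lower at -0.30 with an edgeR adjusted p of 0.0356.

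**Figure D4:**
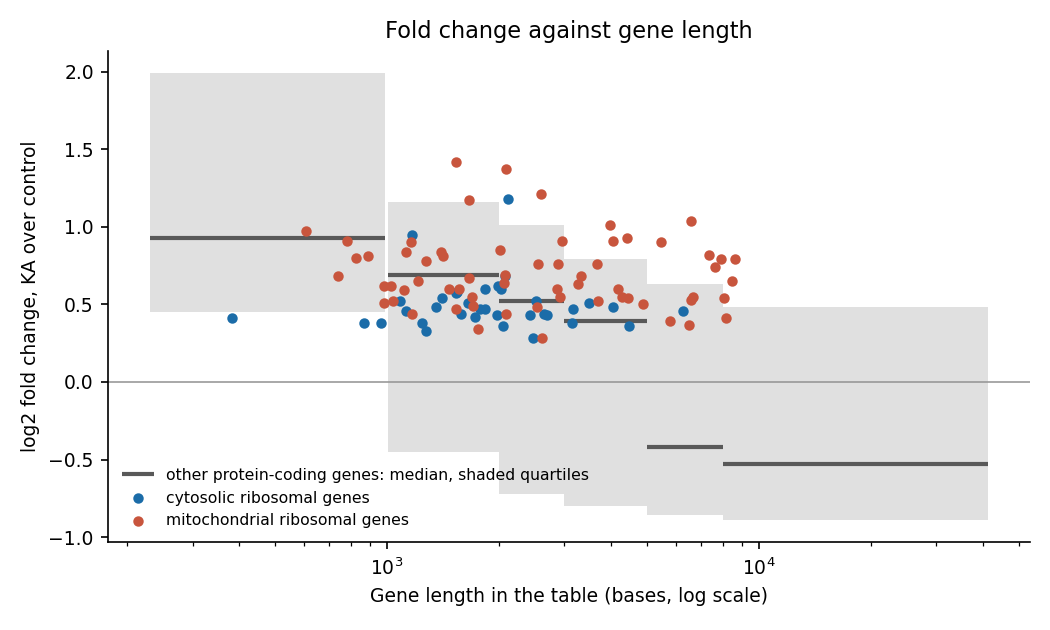
Log2 fold change (edgeR, KA over control) against gene length in bases on a log axis. Grey bars are medians and shaded bands quartiles of other protein-coding genes in 6 length classes, falling from 0.93 under 1000 bases to -0.53 at 8000 bases or more. Cytosolic (blue) and mitochondrial (red) members, all listed as higher in KA, lie between 0.28 and 1.42 at all lengths. The other genes include both directions.

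Among the cytosolic large subunit genes, 21 in number with a median of 0.47, Rpl13a and Rpl41 had the largest fold changes. Rpl13a (chromosome 7, 45125558 to 45128761, minus strand) encodes a large subunit protein also known for silencing the translation of inflammatory mRNAs. Controls 1, 2 and 3 had 529, 716 and 691 normalised reads, and KA 1, 2, 3 and 4 had 1714, 1709, 1249 and 1196, with no overlap. The log2 fold change was 1.18 (SE 0.18, edgeR adjusted p = 0.00024). Its reads were few for a ribosomal protein gene, at 527 normalised reads per kilobase of gene length, against 12877 for Rpl28 and 28659 for Rpl8. In the annotation 1 pseudogene carries its name, and copies under other names were not counted. Whether its reads were lost to such copies was not tested, so they may not follow its level. Rpl41 (chromosome 10, 128548114 to 128549305, minus strand) encodes a very short basic peptide of the large subunit. It had 13540, 19227 and 21740 normalised reads in the controls and 38826, 38420, 33591 and 29930 in KA, again without overlap. Its log2 fold change was 0.95 (SE 0.18, edgeR adjusted p = 0.000972).

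Rplp2 encodes an acidic protein of the stalk that recruits elongation factors. It had 14531, 22286 and 24719 normalised reads in the controls and 34662, 38620, 33693 and 24549 in KA. KA 4 lay just below control 3, so the groups overlapped, and the log2 fold change was 0.68 (SE 0.21, edgeR adjusted p = 0.0107). Rpl8, a protein of the catalytic core, had 24442, 34028 and 37039 normalised reads in the controls and 45850, 47262, 46307 and 37708 in KA, with a log2 fold change of 0.48 (SE 0.17, edgeR adjusted p = 0.0205). It kept its direction but not its call without control 1 (edgeR adjusted p = 0.0639) or KA 2 (0.0532), with TMM (0.0602) or RLE factors (0.0855), with adjustment over 19407 genes (0.0589), with GC content and length correction (0.458) or in females only (0.155). The smallest change was that of Rpl15, at 0.28 (SE 0.12).

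The paralogs had read densities near that of Rpl13a, 670 normalised reads per kilobase for Rpl22l1 and 471 for Rpl7l1. Rpl22l1, a paralog of Rpl22, had 777, 1125 and 1160 normalised reads in the controls and 1605, 1645, 1652 and 1364 in KA, giving a log2 fold change of 0.62 (SE 0.16, edgeR adjusted p = 0.00414). Rpl7l1, a paralog of Rpl7 with a role in large subunit assembly, had 1321, 1295 and 1352 and then 2239, 1892, 1681 and 1747 normalised reads. Its controls lay close together, and its log2 fold change was 0.51 (SE 0.13, edgeR adjusted p = 0.00366).

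The 14 cytosolic small subunit genes (Rps19bp1 counted with them) had a median of 0.45 and a range of 0.33 to 0.60. Rps2, which lines the mRNA entry channel, had 30633, 36739 and 45194 normalised reads in the controls and 57625, 57158, 57404 and 55304 in KA. The KA libraries were close together and above every control, and the log2 fold change was 0.60 (SE 0.16, edgeR adjusted p = 0.00501). Rpsa, the member with the most reads, encodes a small subunit protein also known as the laminin receptor. It had 30639, 45039 and 51799 normalised reads in the controls and 62814, 62882, 58797 and 51641 in KA. KA 4 was below control 3, and the log2 fold change was 0.47 (SE 0.19, edgeR adjusted p = 0.029). The Rpsa call was lost without control 1 (edgeR adjusted p = 0.0887), control 2 (0.0528), KA 1 (0.0588) or KA 2 (0.0693). It was also lost with TMM (edgeR adjusted p = 0.0795) or RLE factors (0.109), with adjustment over 19407 genes (0.0833) and in females only (0.201).

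Rps6, the small subunit protein phosphorylated by S6 kinase, had 15427, 20771 and 20669 normalised reads in the controls and 26480, 26636, 26282 and 23493 in KA, giving a log2 fold change of 0.44 (SE 0.15). Rps27a, made as a fusion with ubiquitin, had 12116, 17616 and 19575 and then 24082, 24223, 21953 and 18292, a log2 fold change of 0.43 (SE 0.18) with KA 4 below control 3. Reads of many cytosolic members are hard to place, since the annotation holds 23 named pseudogenes of Rps12, 11 of Rps2 and 9 of Rpsa. Of such copies 4 were in the table, Rps26-ps1, Rps6-ps4, Rpl10a-ps1 and Rpl36a-ps2, all higher in KA with log2 fold changes of 1.16, 0.62, 0.72 and 0.74. Their parent genes Rps26, Rps6, Rpl10a and Rpl36a had 0.58, 0.44, 0.43 and 0.51. The 5 genes printed for their CTCTTTC (Rpl18, Rpl28, Rpl35, Rps26 and Rps15a) had 0.48, 0.47, 0.38, 0.58 and 0.46, all near the cytosolic median. With GC content and length correction Rpl35, alone among these 5, had a negative value, -0.061 (edgeR adjusted p = 0.6).

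In the mitochondrial ribosome the 40 large subunit genes had a median of 0.76 and the 23 small subunit genes one of 0.60. Mrpl12 (chromosome 11, 120484613 to 120489065, plus strand) encodes the stalk protein, which is also known to bind the mitochondrial RNA polymerase. It had 411, 570 and 526 normalised reads in the controls and 1688, 1562, 1061 and 1073 in KA. The log2 fold change of 1.42 (SE 0.20, edgeR adjusted p = 0.000175) was the largest of all 98 members. Mrps27 (chromosome 13, 99344786 to 99415562, plus strand), a pentatricopeptide repeat protein of the small subunit, had 276, 355 and 385 normalised reads in the controls and 978, 872, 755 and 893 in KA. Every KA library was far above every control, and the log2 fold change was 1.37 (SE 0.16, edgeR adjusted p = 5.26e-05).

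Mrpl45, which sits at the exit tunnel and helps to anchor the ribosome at the inner membrane, had 367, 483 and 502 normalised reads in the controls and 1186, 969, 1063 and 964 in KA. Its log2 fold change was 1.21 (SE 0.15, edgeR adjusted p = 8.24e-05). Mrpl20, a large subunit protein, had 469, 698 and 711 and then 1718, 1460, 1349 and 1102 normalised reads, a log2 fold change of 1.17 (SE 0.19, edgeR adjusted p = 0.000382). None of these 4 genes overlapped between the groups.

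The mitochondrial members with the most reads, and Mrpl58, changed less than these 4. Mrpl52 had 1112, 1616 and 1668 normalised reads in the controls and 2394, 2431, 2052 and 1930 in KA, giving a log2 fold change of 0.59 (SE 0.16, edgeR adjusted p = 0.00598). After correction for GC content and length its value was 0.06 (edgeR adjusted p = 0.615). Mrpl51 had 824, 1185 and 1124 and then 2325, 2135, 1697 and 1680, a log2 fold change of 0.91 (SE 0.17, edgeR adjusted p = 0.000802). Mrpl17 had 898, 1147 and 1146 and then 2082, 1809, 1736 and 1503, a log2 fold change of 0.74 (SE 0.15, edgeR adjusted p = 0.00107). Mrpl58, a peptidyl-tRNA hydrolase built into the large subunit, had 365, 464 and 475 and then 759, 700, 683 and 637, a log2 fold change of 0.68 (SE 0.14, edgeR adjusted p = 0.00136). All 4 genes had every KA library above every control. The smallest mitochondrial change was that of Mrpl4, at 0.28 (SE 0.11).

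Ribosomal proteins with other names moved the same way. Of 10 such symbols looked for, 4 were not listed, of which Ict1 is an older symbol of Mrpl58, and the 6 found (Mrpl58 among them) were all called higher by edgeR, against 52.7% of genes tested, with a median of 0.58. Gadd45gip1, a mitochondrial large subunit protein, had 247, 277 and 253 normalised reads in the controls and 713, 533, 503 and 481 in KA, giving a log2 fold change of 1.11 (SE 0.17, edgeR adjusted p = 0.000259). Rack1, a scaffold on the cytosolic small subunit, had 21840, 28230 and 29652 and then 36234, 34013, 34724 and 33728, a log2 fold change of 0.38 (SE 0.15, edgeR adjusted p = 0.0245). That call was lost without control 1 (edgeR adjusted p = 0.0722) or KA 2 (0.0505), with TMM (0.0911) or RLE factors (0.137), with adjustment over 19407 genes (0.0705), with a block by replicate number (0.073) or title letter (0.0593) and in females only (0.153). The mitochondrial small subunit proteins Chchd1, Aurkaip1 and Ptcd3 had log2 fold changes of 0.65, 0.50 and 0.46, and the groups overlapped for Ptcd3, whose call was lost without control 3 (edgeR adjusted p = 0.0691), with TMM (0.0676) or RLE factors (0.0999), with adjustment over 19407 genes (0.0544) and in females only (0.183).

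Reads of the RNA core of the mitochondrial ribosome were higher too. How far library preparation kept ribosomal RNA was not tested, so these reads may not follow its amount. The large ribosomal RNA, mt-Rnr2, had 3268, 3675 and 3428 normalised reads in the controls and 5681, 6430, 4595 and 5056 in KA, giving a log2 fold change of 0.65 (SE 0.14, edgeR adjusted p = 0.00154). The small ribosomal RNA, mt-Rnr1, had 2885, 2755 and 1980 and then 3746, 4320, 4227 and 2857, with KA 4 below control 1 and a log2 fold change of 0.58 (SE 0.18, edgeR adjusted p = 0.0103). Of 15 mitochondrial genome genes looked for, 12 were listed and all were called higher, against 52.7% of genes tested, with a median of 0.64. Unlike the sums of the nuclear-encoded members, their summed reads were highest among controls in control 1 (147530) and highest among KA libraries in KA 4 (246281). This order did not hold gene by gene. Control 1 was the lowest control for 5 of the 12, mt-Rnr2 among them, and KA 4 was the lowest KA library for mt-Rnr1.

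Genes that build and serve the ribosome were read from lists of textbook members, each against the 52.7% of genes called higher and 47.3% called lower. List sizes count the symbols looked for, some of them older names of a gene that is also on the list under its current name. For the making of cytosolic ribosomes, 17 of 18 small nucleolar RNP and nucleolar proteins were listed and all 17 were called higher, with a median of 0.72. They include Fbl, the methyltransferase of box C/D particles, with a log2 fold change of 0.88 (SE 0.17), Nhp2 of the H/ACA particles with 0.90 (SE 0.18) and the nucleolar chaperone Npm3 with 0.98 (SE 0.17). Small subunit assembly factors were called higher in 22 of 22 listed (of 43 symbols) with a median of 0.67, led by Bysl at 1.25 and Rrp12 at 1.30, with Tbl3 at 0.90. Large subunit assembly factors were called higher in 31 of 31 listed (of 51 symbols) with a median of 0.56. Eif6, which keeps the subunits apart, had 1.06 (SE 0.15), Bop1 0.92 (SE 0.13) and Grwd1 1.15 (SE 0.20). Genes for the transcription of ribosomal RNA were mixed, with 6 higher and 3 lower of 9 listed (of 23 symbols). The polymerase subunits Polr1a, Polr1d and Polr1e had 0.77, 0.76 and 0.86. Of 18 small nucleolar RNA host genes 7 were listed, with 5 higher (Zfas1 0.90, Snhg1 0.59) and 2 lower (Snhg18 at -1.47).

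Most listed translation factors rose, while regulators were split. Initiation factors were called higher in 24 and lower in 2 of 26 listed (of 33), with a median of 0.59, among them Eif3d at 0.69, Eif2b4 at 0.79 and Eif2b2 at 0.72. Elongation factors and other mRNAs with a TOP start were called higher in 10 of 10 listed (of 21), with a median of 0.54, among them Eef1g at 0.82 and Eif3l at 0.54. Vim, also on that list, had 1.13 and is a marker of mesenchymal and immune cells as well. The mTOR, S6 kinase and Myc regulators were called higher in 7 and lower in 9 of 16 listed (of 39), with a median of -0.46. Eif4ebp1, the repressor of cap-dependent initiation that mTOR inactivates, had 489, 607 and 632 normalised reads in the controls and 1562, 1425, 1092 and 1252 in KA, giving a log2 fold change of 1.21 (SE 0.16). Mxd3, a Max partner, had 1.59 (SE 0.23). The kinase gene Rps6ka6 had 811, 822 and 812 and then 262, 301, 369 and 281, a log2 fold change of -1.43 (SE 0.14).

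Most listed factors of mitochondrial translation were higher too. Of 25 translation factors 10 were listed, 9 higher and 1 lower, with a median of 0.69. The elongation factor gene Tufm had 0.92 (SE 0.15) and its exchange factor Tsfm 0.87 (SE 0.18), whereas Guf1, a back-translocating factor, had 658, 705 and 704 normalised reads in the controls and 461, 442, 483 and 418 in KA, giving a log2 fold change of -0.61 (SE 0.12). Assembly factors of the mitochondrial ribosome were listed for 7 of 31 symbols, with 6 higher and 1 lower and a median of 0.49, among them Ddx28 at 0.73, Afg3l2 at 0.54 and Noa1 at 0.44. Mitochondrial aminoacyl-tRNA synthetases and partners were listed for 4 of 20, all higher, with a median of 0.62, among them Qrsl1 at 0.91, Sars2 at 0.71 and Fars2 at 0.53.

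Markers of cell types and of dividing cells moved between the same groups, and their part in the ribosomal differences was not tested. Of all genes tested, 52.7% were called higher and 47.3% lower. Of 12 proliferation genes 10 were listed, all higher, with sums of 4128 to 5212 normalised reads in controls and 9989 to 18451 in KA. Of 10 keratinocyte markers 5 were listed, 3 higher and 2 lower, with sums of 583995 to 656865 and 1015244 to 1070816. All 7 Langerhans cell markers were higher (24924 to 34463 against 58018 to 88206). Of these, Mfge8 rose from a mean of 909 to 15970 normalised reads, a log2 fold change of 4.13, and the others had 0.77 to 1.27. Of 9 neutrophil and myeloid markers 5 were listed, 3 higher and 2 lower (762 to 1075 against 1631 to 1968). Of 8 T cell markers 5 were listed, 1 higher and 4 lower (1335 to 1710 against 707 to 840), and of 6 melanocyte markers 2, both lower (328 to 551 against 247 to 335). Of 6 adipocyte markers 2 were listed, both higher (18 to 121 against 207 to 338), and of 6 endothelial markers 1, higher (11.4 to 17.6 against 34.5 to 55.4). None of the dermal fibroblast, muscle or mast cell markers was listed. Reads in listed genes were 9590718 to 12761458 per library, which is not the sequencing depth, and all pairs of libraries within a group differed by more than counting noise (lowest and highest chi-square over its degrees of freedom 20.7 and 111).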

How the data were processed

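RNA was sequenced from the epidermis of 4 KA and 3 control mice, grouped by their titles. Per the submitters' processing notes, fastp, STAR 2.6.1d, featureCounts 1.5.0-p3 and DESeq2 1.40.2 were used with build mm10; the strand setting and annotation are not given in the sources used here, so overlapping genes and copies are uncertain. Per the file headers, the authors deposited raw read counts per gene and normalised reads (a signal scale: counts divided by 1 size factor per library, 0.8876 to 1.2469). The deposited table also holds the authors' log2 fold change, test score, p-value and adjusted p-value, and its 7091 genes all have an adjusted p-value under 0.05 (largest 0.04995). No column belonged to another sample (0 columns). Per the labels' protocols, libraries came from the NEBNext Ultra kit.

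Counts were fitted with edgeR 4.0.16 in R 4.3.3 (filterByExpr, robust glmQLFit and glmQLFTest, the authors' size factors, Benjamini-Hochberg adjustment, threshold 0.05). The filter left out 345 genes, none of them a ribosomal member. Factors computed from listed genes rest on selected genes and were an alternative. The code was tested on simulated data. Starts and ends of 94 of 98 members were those of GENCODE M21 on GRCm38. Alternatives were TMM and RLE factors, leaving the filter out or asking for 10 counts on average, limma-voom (limma 3.58.1), DESeq2 1.42.0, sex, blocks by replicate number, title letter or run of animal numbers, adjustment over 19407 genes, GC content and length correction, and each library left out; 2 were chosen after seeing the data (animals 4853 to 4857, and females only).

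The members and lists were chosen with earlier results of these data known. Genes were named by a rule: per ribosome the 4 largest rises and falls past the threshold, the 3 with most reads, paralogs, stalk proteins and Rpsa, ribosomal proteins with other names, and up to 3 genes of smallest adjusted p per list. Other genes named were chosen after their values were seen. A few genes are counted in totals and not reported here by name.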

Additional observations from a re-analysis of the deposited data

Results flagged for a closer look

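The check covered 136 genes, the ribosomal members and the related genes named by the rule above. Most of the related genes had been named for a small adjusted p, and other genes of the lists were not checked. In 9 of the 136, 1 KA library lay far from the other 3. The distance was its gap to the nearest library over the range of the group, set against Dixon's 95% limit for 4 samples. Chance gives about 1 in 20 groups, or 6.8 of 136. KA 4 was the low library for Rps26 (0.917), Rps6 (0.888), Rpl8 (0.852), Mrps17 (0.847) and Rpl22l1 (0.837). KA 1 was the high library for Mrpl1 (0.872), Mrpl46 (0.861) and the large subunit assembly factor Bop1 (0.839). KA 4 was the high library for Sars2 (0.834), a mitochondrial aminoacyl-tRNA synthetase gene.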

How the results depend on the processing

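The counts of cytosolic members depended on the processing more than those of mitochondrial members. Of 35 cytosolic members called higher, 14 were called with TMM and 11 with RLE factors from the listed genes (medians 0.33 and 0.30, all-gene shifts -0.13 and -0.17), 16 with adjustment over 19407 genes, 10 with GC content and length correction (1 lower, median 0.19) and 3 in females only. For the mitochondrial members, 40 were called with GC content and length correction and 38 in females only, where 4081 genes were called in all. In animals 4853 to 4857 the medians were 0.66 and 0.85. With each library left out in turn, cytosolic calls ran from 15 to 34 and their median from 0.32 to 0.57, mitochondrial calls from 56 to 63 and their median from 0.56 to 0.73, and calls over all genes from 6028 to 6649. Why the values moved was not tested.

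Replicate numbers did not pair the libraries (correlations of same-numbered deviations -0.191, 0.119 and -0.102). With the replicate block, 30 cytosolic, 59 mitochondrial and 6103 genes in all were called. With the block and GC content and length correction together, 8 cytosolic (median 0.23) and 39 mitochondrial members were called higher, beside 2831 of 6746 genes tested. Of the genes named by the rule above, Chchd1 came to -0.0044 (edgeR adjusted p = 0.974) with GC content and length correction. Guf1 came to 0.00023 (edgeR adjusted p = 0.999) when the block was added. Rpl36, Rpl32 and Rpl35, named here outside that rule, came to -0.3, -0.2 and -0.061 with GC content and length correction. Depth cannot be read from a table of selected genes.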
